A study of Mus musculus with 14 samples.

Results

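Induced hepatic stem cells (iHepSCs) grown in a 2D monolayer together with induced endothelial cells (iECs) were compared with iHepSCs grown alone in 2D. The comparison used 4 of the 14 libraries, the 2 named 2D-iHepSCiEC (2D-iHE) and the 2 named 2D-iHepSC (2D-iH). It covered 13345 of 28022 genes, those whose log2(count + 1) averaged 3 or more across the 4 libraries, and the other 14677 genes were under that level. The iHepSCs of both groups were made from C57BL/6J mouse embryonic fibroblasts (MEFs) by lentiviral Oct4 and Hnf4α. The iECs were made from HF1, a human fibroblast line, by lentiviral ETV2. Both groups were kept in the same iHEA medium, a mixture of the hepatic and endothelial media with oncostatin M, basic FGF and VEGF. They differed by the added iECs. The seeding of 2D-iH is not given in the sources used here, so whether cell density also differed is not known. RNA came from the whole dish, and the reads were aligned to the mouse genome. How reads of human origin were handled is not given in the sources used here. The study also sequenced hepatic organoids (3D-iHA), assembloids of organoids with iECs (3D-iHEA), fibroblasts, and fetal and adult liver. Co-culture was meant to ask how iECs influence iHepSCs.

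In the liver, hepatocytes lie next to sinusoidal endothelial cells, which release growth factors and lay down matrix proteins such as fibronectin. Matrix proteins are sensed by integrins, and TGF-β, YAP, Notch and Wnt signals pass between neighbouring cells. iHepSCs are progenitor-like cells that carry hepatic and biliary genes and can mature towards either fate.

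The 4 libraries held 33001727 and 29186798 counts in 2D-iH, and 35143325 and 20851489 counts in 2D-iHE. The 2 libraries of a group differed by more than counting noise, with a chi-square per gene of 3.59 in 2D-iH and 3.47 in 2D-iHE. The labels call every library replicate 1 of its condition, and nothing says that libraries of a group came from separate cultures. The p-values therefore measure the spread between libraries, which may be technical, and the common coefficient of variation was 3.47%. 2D-iH library 1 stood apart in liver transcripts. CPM are a gene's counts scaled to 1e6 counts per library, with the totals adjusted by edgeR's TMM scaling. At 1000 CPM or more in adult liver were 245 genes. Of these, 37 had over 3 counts in 2D-iH library 1 and at most 3 in each of the other 3. None of the other 3 libraries had any such gene of its own. For example, Serpina3k had 40 counts in 2D-iH library 1 and 0, 0 and 0 in the others, and the fibrinogen gene Fga had 43, 0, 2 and 0.

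Co-culture moved many genes by small amounts. In edgeR's quasi-likelihood test with Benjamini-Hochberg adjustment, 1068 genes were higher and 978 lower in 2D-iHE at an adjusted p under 0.05. That is 8.0% and 7.33% of the tested genes, or 15.3% together. The counts of called list members below are to be read against these shares. With library totals as the only scaling the split was 1449 higher and 769 lower. The median size of a called change was 0.28 on the log2 scale, and the median over all tested genes was 0.00. The 2 groups did not overlap in CPM for 2044 of the 2046 called genes, and for 54.6% of all tested genes. A log2 change of at least 1 was seen for 72 higher and 56 lower genes. Called genes that were higher had a median level of 31.3 CPM and called genes that were lower 68.7 CPM, against 29.8 CPM for all tested genes. Of the genes called higher, 60.3% had a higher mean CPM in fibroblasts than in adult liver, against 54.0% of all tested genes and 39.2% of the genes called lower. Against fetal liver these shares were 66.8%, 49.9% and 38.2%. Without 2D-iH library 1 the counts were 619 higher and 653 lower, and without 2D-iHE library 1 they were 701 and 654.

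**Figure D1:**
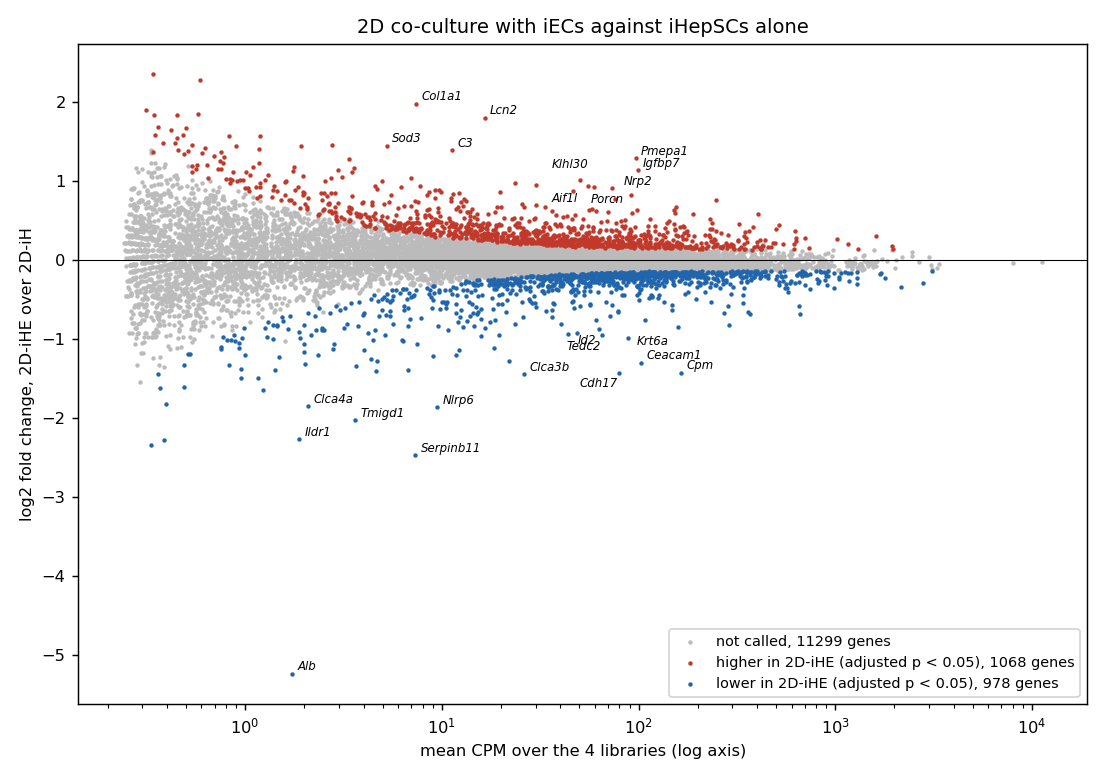
Mean level in CPM (log axis) against the log2 fold change of 2D-iHE over 2D-iH for the 13345 tested genes, with the 1068 genes called higher in red and the 978 called lower in blue. Most called genes lie near 0, Pmepa1, Cpm, Cdh17 and Ceacam1 stand out among abundant genes, and Alb, with 210 counts in 2D-iH library 1, lies alone at the bottom.

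Col1a1 and Lcn2 had the largest increases among called genes at 1 CPM or more. Col1a1 (chr11:94936224-94953042, plus strand, GRCm38), a chain of type I collagen, was at 2.84 and 3.22 CPM in 2D-iH and at 12.5 and 11.1 CPM in 2D-iHE. Both co-culture libraries were above both libraries without iECs, as was required of genes named for their size of change. The log2 fold change of Col1a1 was 1.97 ± 0.13 (SE, 2 libraries per group), with an adjusted p of 3.27e-11 by edgeR's quasi-likelihood test. Lcn2, lipocalin-2, an iron-scavenging acute phase protein, was at 7.30 and 7.49 CPM in 2D-iH and 26.2 and 25.1 CPM in 2D-iHE (log2 fold change 1.80 ± 0.09). C3, the central complement component, was at 5.86 and 6.55 CPM and at 15.9 and 16.7 CPM (1.39 ± 0.10). Sod3, extracellular superoxide dismutase, was at 3.02 and 2.56 CPM and at 7.55 and 7.81 CPM (1.45 ± 0.14). Such separation of the groups was a condition of naming all 4 of these genes, and 54.6% of all tested genes also had it. Ccbe1, which promotes lymphatic growth through VEGF-C, the complement protease gene C1s1, and Cybb, the catalytic subunit of the phagocyte NADPH oxidase, also rose, with log2 fold changes of 1.46, 1.44 and 1.28. Gpm6b, a membrane glycoprotein, rose by 1.57, Padi2, a peptidylarginine deiminase, by 1.41, and Ptk7, a pseudokinase of planar cell polarity, by 1.23, all at a mean under 2 CPM. Of the 33 genes named for their size of change, 28 were called in the fit of the 8 culture libraries and 29 in that of all 14. C3, C1s1, Cybb and Gstm3 were called in neither, and Padi2 was not called in the former.

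Among genes at 50 CPM or more, Pmepa1 led the increases. This TGF-β target encodes a membrane protein that restrains TGF-β signalling, and it was at 55.3 and 57.1 CPM in 2D-iH and at 139.9 and 134.0 CPM in 2D-iHE. Its log2 fold change was 1.29 ± 0.05 (adjusted p = 7.437e-15 by edgeR's quasi-likelihood test). Igfbp7, a secreted binding protein for insulin-like growth factors, rose from 63.5 and 60.3 CPM to 139.0 and 133.2 CPM, 2.20-fold. Nrp2, a co-receptor for semaphorins and VEGF-C, rose from 50.5 and 51.9 to 96.4 and 95.9 CPM, and Porcn, which adds the lipid that Wnt proteins need for secretion, from 43.0 and 39.2 to 80.7 and 75.4 CPM. Klhl30 and the actin-binding protein gene Aif1l followed, at log2 fold changes of 1.01 and 0.94. All 6 of these genes stayed called when any of the 4 libraries was left out.

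After Alb, the largest decreases at 1 CPM or more were those of Serpinb11, Ildr1 and Tmigd1, and at 50 CPM or more those of Cpm, Cdh17 and Ceacam1. Cdh17 (chr4:11758147-11817895, plus strand), the liver-intestine cadherin, was at 112.2 and 121.0 CPM in 2D-iH and 44.0 and 42.8 CPM in 2D-iHE. Cpm (chr10:117629500-117687352, plus strand), carboxypeptidase M of the cell surface, was at 241.6 and 236.1 CPM and at 85.6 and 92.9 CPM. Ceacam1, a cell adhesion molecule of bile canaliculi and gut, was at 140.1 and 152.4 CPM and at 58.6 and 60.1 CPM. The 3 genes were each lower in both co-culture libraries, as their naming required, with log2 fold changes of -1.42 ± 0.06, -1.42 ± 0.05 and -1.30 ± 0.05. Nlrp6, an inflammasome sensor of gut epithelium, went from 13.4 and 16.2 CPM to 3.76 and 4.54 CPM (-1.86 ± 0.12). Serpinb11, a serpin, went from 11.9 and 12.9 CPM to 2.18 and 2.32 CPM, which is 5.54-fold lower, with an adjusted p of 1.251e-12 by edgeR's quasi-likelihood test. Both genes were thus at a small part of their level without iECs. Tmigd1, an epithelial adhesion protein, Ildr1, of tricellular junctions, and Clca3b and Clca4a, of a secreted epithelial family, fell by 2.02, 2.27, 1.45 and 1.85 on the log2 scale. Clca genes have close copies, so reads may be split among them. Ddc, which makes dopamine and serotonin, Gstm3, a glutathione transferase, and Slc2a3, the glucose transporter GLUT3, fell by 1.64, 1.5 and 1.40. Krt6a, an epithelial keratin, Tedc2 and Id2, an inhibitor of helix-loop-helix factors, fell by 0.99, 0.95 and 0.88 at 50 CPM or more. The related Id1 and Id3, looked up after the values were seen, were also lower, at log2 fold changes of -0.44 and -0.63.

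The largest fitted decrease belonged to Alb (chr5:90460897-90476602, plus strand), the gene of albumin, and it rested on 1 library. Alb had 210 counts in 2D-iH library 1, 9 in 2D-iH library 2, and 3 and 2 in the 2D-iHE libraries, while the adult liver libraries had 8113083 and 7888792. The fitted log2 fold change was -5.24. Without 2D-iH library 1 it was -1.77, with an adjusted p of 0.135 by edgeR's quasi-likelihood test. From 9 and 5 counts, the ratio of 2D-iH library 2 to the 2D-iHE libraries was 3.45, with an exact 95% interval of 1.04 to 13.1 for counting error only. Of the 33 genes named for their size of change, 31 stayed called without each library in turn, and Alb and Smtnl2 did not. Smtnl2, a smoothelin-like protein gene, had a log2 fold change of 1.18, and its adjusted p by edgeR's quasi-likelihood test was 0.119 without 2D-iH library 1.

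**Figure D2:**
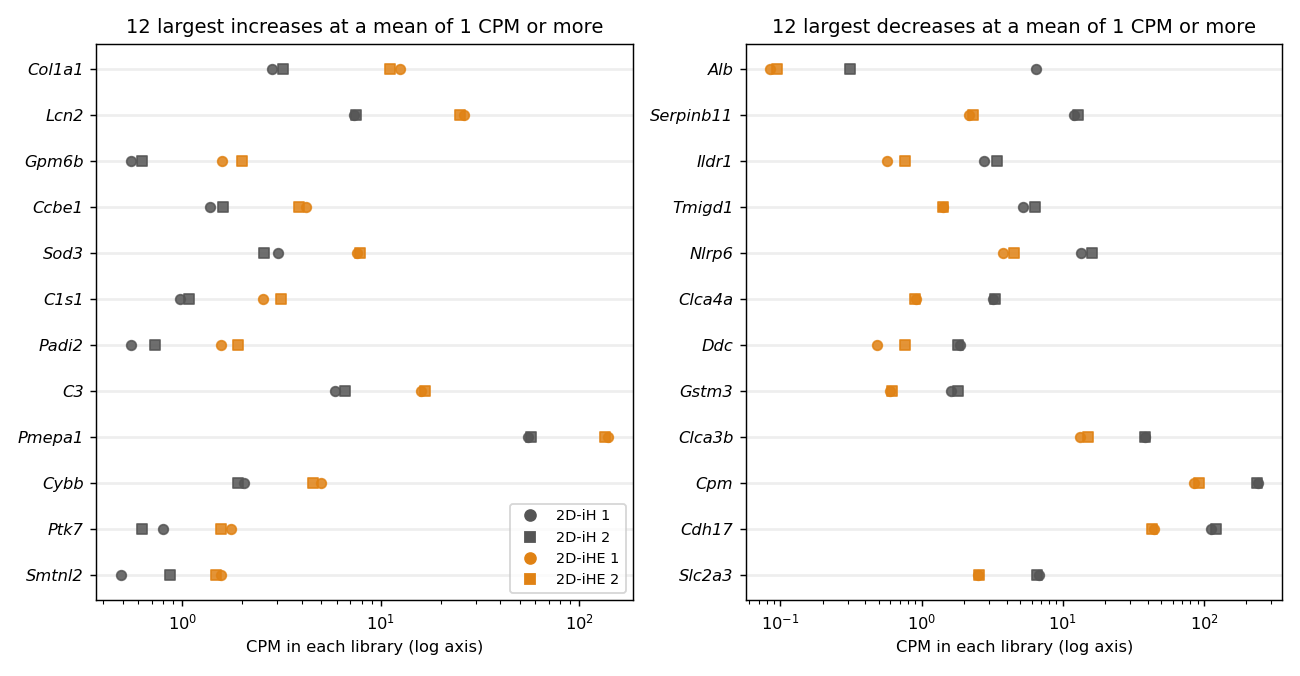
CPM (log axis) in each of the 4 libraries for the 12 largest increases (left) and the 12 largest decreases (right) among called genes at a mean of 1 CPM or more, grey for 2D-iH, orange for 2D-iHE, circles for library 1 and squares for library 2. The genes were required not to overlap between the groups, and the Alb points of 2D-iH are far apart, at 6.41 and 0.312 CPM.

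Among matrix genes more were called higher than lower, and most were not called. Of 20 tested collagen genes, 8 were higher, 0 lower and 12 not called, against 8.0% higher among all tested genes, with a median log2 fold change of 0.47. The higher collagens were 4 in the fit of the 8 culture libraries, 3 in the fit of all 14 and 5 with DESeq2. Besides Col1a1, the type VI chain Col6a1 went from 6.35 and 7.77 CPM to 12.8 and 12.6 CPM (0.86), and Col5a1, a regulator of collagen fibril width, from 11.2 and 11.96 to 15.2 and 16.0 CPM (0.42). Col6a2 and Col12a1 were called at levels of 0.24 to 1.42 CPM. Col6a2 was at 1.59 and was not called without 2D-iHE library 1, and Col12a1 was at 1.01 and was not called without 2D-iH library 2 or without 2D-iHE library 2. The abundant basement membrane chains Col4a1 and Col4a2 did not pass, at log2 fold changes of -0.03 and -0.06. Of 19 integrins and laminins, 8 were higher, 0 lower and 11 not called (median 0.14), with 5 higher in the fit of 8 libraries. The laminin chain Lamb1 went from 32.1 and 33.9 CPM to 63.8 and 56.2 CPM (0.87), and Lamb3, a chain of epithelial laminin, from 116.5 and 121.7 to 186.8 and 181.7 CPM (0.63). Itga5 and Itgav, receptor chains for fibronectin and related proteins, rose by 0.29 and 0.27, Lama3 and Itgb3 had log2 fold changes of 0.47 and 0.50, and Itgb1, the partner chain, had a log2 fold change of 0.03 with an adjusted p of 0.733 in edgeR's quasi-likelihood test. Fn1, fibronectin, rose from 200.7 and 196.0 CPM to 276.2 and 275.0 CPM (0.47), and it was not called in the fits of 8 and 14 libraries. Of 16 matrix proteases and inhibitors, 5 were higher, 2 lower and 9 not called (median 0.17), with Mmp19 at 0.78, Mmp11 at 0.39 and Serpine2, a protease inhibitor, at 0.26 among the higher, and Timp3, a metalloprotease inhibitor, at -0.61 among the lower, which were 1 without 2D-iH library 2 or 2D-iHE library 2. The higher proteases and inhibitors were 2 in the fit of 8 libraries and 1 in that of 14. Col5a1 and Serpine2 were called in neither fit, and Mmp19 was not called in the former nor Mmp11 in the latter. Calls were lost by Lama3 without 2D-iH library 2, by Mmp19 without 2D-iH library 1 or 2D-iHE library 1, and by Itgb3 without any library except 2D-iHE library 2.

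Fibroblast markers were looked at beside the matrix genes. Of 21 listed fibroblast markers 13 were tested, and 5 were higher and 0 lower (median 0.42), 4 of them collagens and the fifth Vim, the intermediate filament vimentin, at 0.17. Without 2D-iHE library 1 the higher markers were 3, and in the fits of 8 and 14 libraries they were 2. The summed level of the list was 1824 and 1886 CPM in 2D-iH and 2179 and 2035 CPM in 2D-iHE. The defining collagen genes Col1a2 and Col3a1 had 0 to 3 counts in each of the 4 libraries, where fibroblasts had 11620 and 3254 mean CPM. In these bulk libraries, fewer cells of a type and less RNA per cell cannot be told apart.

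Of 22 tested genes of the TGF-β pathway and its targets, 11 were higher, 1 lower and 10 not called (median 0.19). These shares are 50% higher and 4.55% lower, against 8.0% and 7.33% of all tested genes. Fn1 and Pmepa1 belong to this list. Ltbp1, which stores latent TGF-β in the matrix, went from 71.3 and 70.5 CPM to 99.2 and 101.9 CPM (0.50), and Thbs1, thrombospondin-1, a TGF-β activator, from 9.25 and 8.91 to 12.4 and 13.3 CPM (0.49). The ligand Tgfb1 and the receptors Tgfbr1 and Tgfbr2 rose by 0.27, 0.18 and 0.19. The signal transducers Smad2, Smad3 and Smad4 were at -0.01, 0.01 and -0.01 and did not pass the test, and the matrix protein gene Tgfbi was lower, at -0.52. Of 21 YAP and TEAD targets, 7 were higher, 1 lower and 13 not called (median 0.09), so 33.3% were higher and 4.76% lower. Ccn2, a matrix signalling protein, went from 435.5 and 442.3 CPM to 588.6 and 608.3 CPM (0.45), while Ccn1 and Ankrd1, other classical YAP targets, were at -0.08 and -0.02 and did not pass. The receptor kinase gene Axl, Ajuba of cell junctions and the TEAD cofactor Vgll3 had log2 fold changes of 0.39, 0.33 and 0.32. Tgfbi was not called without 2D-iH library 2 or 2D-iHE library 2, nor Vgll3 without 2D-iHE library 2. No YAP target was called lower without 2D-iH library 2 or 2D-iHE library 1. In the fit of the 8 culture libraries 4 of the TGF-β genes and 3 of the YAP targets were higher, and Ltbp1, Thbs1, Axl and Vgll3 were among those not called.

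Of 26 genes of the interferon response and MHC class I, 13 were higher, 2 lower and 11 not called (median 0.25). The shares were 50% higher and 7.69% lower, against 8.0% and 7.33% of all tested genes. Bst2, tetherin, which holds budding viruses at the cell surface, went from 115.2 and 140.7 CPM to 181.6 and 170.3 CPM (0.46). Ifi44, an interferon-induced gene, went from 49.2 and 65.4 to 77.5 and 83.8 CPM (0.49). Ifi44 was not called with DESeq2 or a robust prior, and its log2 fold change was 0.30 to 0.71 with 1 library left out. Gbp2, a guanylate-binding protein, and Ifit3 had log2 fold changes of 0.65 and 0.53, but the Ifit3 levels overlapped, at 16.9 and 24.1 CPM in 2D-iH and 23.8 and 36.8 CPM in 2D-iHE, and the call was lost without 2D-iHE library 2. Rsad2, the antiviral protein viperin, was lower, at -0.44. The number called lower was 1 without 2D-iH library 2 or 2D-iHE library 1. The number called higher depended on the library, with 6 without 2D-iH library 1 and 19 without 2D-iH library 2. Of 17 tested genes of oncostatin M signalling, STAT3 and the acute phase, 6 were higher, 0 lower and 11 not called (median 0.17). Across the alternative settings up to 4 members were called lower. Beside Lcn2 and C3, they included Osmr, the oncostatin M receptor chain, from 9.59 and 9.67 CPM to 17.0 and 15.7 CPM (0.77), Lbp, the carrier of bacterial lipopolysaccharide (0.48), Il6st, the shared receptor chain (0.18), and Socs3, a feedback inhibitor (0.23). Without library 2 of either group 1 gene of this list was lower. Of 23 chemokines and cytokines, 7 were higher and 3 lower (median 0.17), or 30.4% and 13%. Csf1, the growth factor of macrophages, rose from 147.8 and 154.3 CPM to 224.1 and 228.3 CPM (0.58), Cxcl16 rose by 0.71, Il34, the other ligand of the Csf1 receptor, was at 0.45, and Ccl20, which attracts lymphocytes to epithelia, fell by 0.66. Without 2D-iHE library 1, Il34 was not called and 4 members were higher. Of 10 markers of macrophages and blood, 4 were tested, and Cd14 was higher, at 0.38.

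Of 14 heat shock genes, 11 were lower and 0 higher (median -0.18), against 7.33% lower among all tested genes. The lower ones were 6 without 2D-iHE library 1, 7 without 2D-iH library 1 and 5 in the fit of the 8 culture libraries. Hsp90aa1, the inducible HSP90 chaperone, went from 844.7 and 825.1 CPM to 636.2 and 663.2 CPM (-0.36), and Hsph1, an HSP110 chaperone, was at -0.30. The near-identical Hspa1a and Hspa1b, inducible HSP70 genes between which reads are uncertain, were at -0.85 and -0.36, and Hspa1b was not called without 2D-iHE library 2. Of 21 targets of NRF2, the regulator of antioxidant genes, 13 were lower and 0 higher (median -0.20). Gsta1, a glutathione transferase with a close copy, went from 436.7 and 441.4 CPM to 280.2 and 277.0 CPM (-0.66). G6pdx, the entry enzyme of the pentose phosphate pathway, went from 135.1 and 135.4 to 99.4 and 96.0 CPM (-0.47), and the antioxidant genes Srxn1 and Gsta3 were at -0.35 and -0.42. Hmox1 and Nqo1, other standard NRF2 targets, did not pass, at 0.03 and -0.17.

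Of 24 cholesterol synthesis genes, 15 were lower and 1 higher (median -0.21), and 9 were lower without 2D-iHE library 1. Hmgcs1, which makes the HMG-CoA precursor, went from 196.6 and 199.4 CPM to 144.0 and 151.4 CPM (-0.42). Insig1, the sterol-sensing retention protein, and Cyp51 and Idi1, enzymes of the pathway, were at -0.29, -0.28 and -0.32, and Ebp, a sterol isomerase, was the member called higher, at 0.18. The members called higher were 2 without 2D-iHE library 2, and 0 when any 1 of the other 3 libraries was left out, with DESeq2 or with a replicate block. Idi1 was not called without 2D-iHE library 1. Of 32 genes of the unfolded protein and integrated stress responses, 12 were lower, 2 higher and 18 not called (median -0.10). Gdf15, a stress-induced cytokine, went from 16.4 and 18.6 CPM to 11.7 and 9.33 CPM (-0.71), Atf3, a stress transcription factor, from 132.8 and 131.5 to 93.7 and 95.4 CPM (-0.48), and Hspa5, the chaperone BiP, from 3109 and 3037 to 2486 and 2535 CPM (-0.29). Ddit3, the factor CHOP, was at -0.29, whereas Trib3, Chac1 and Asns, other targets of the response, were between -0.10 and -0.04 and did not pass. Without 2D-iH library 1, 7 members were lower and 0 higher, and without 2D-iH library 2, 8 were lower.

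**Figure D3:**
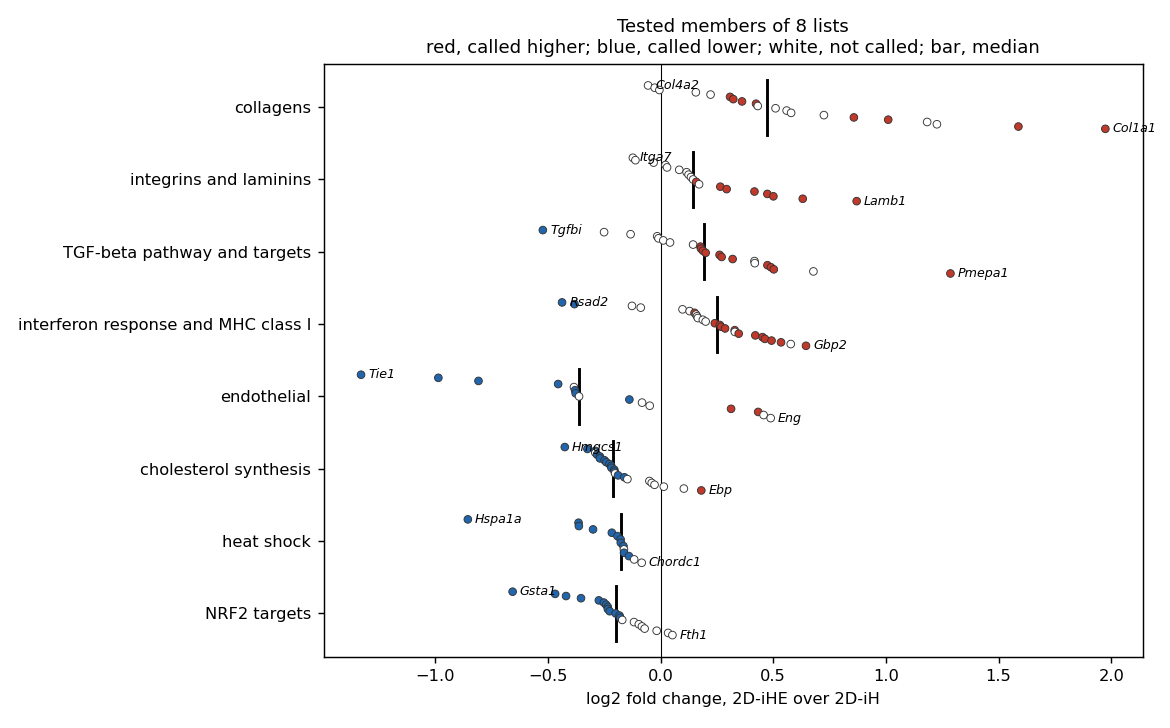
Log2 fold change of 2D-iHE over 2D-iH for every tested member of 8 lists, red where called higher, blue where called lower, white where not called, with a bar at the median. The bars of collagens (0.47) and interferon genes (0.25) lie right of 0, and those of endothelial markers (-0.36), cholesterol genes (-0.21), heat shock genes (-0.18) and NRF2 targets (-0.20) left of it.

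Promoter sequences of 3 of the lowered genes are printed, chosen because each holds the motif searched for in its list. Sequences are from RefSeq (GRCm38.p6), 5′ to 3′ on the strand of the gene, and run up to 250 bases before the start, with capitals marking the motif on either strand. The first is from the minus strand of chr1:55087933-55088147, inside the span of Hspd1 and across the start of Hspe1, mitochondrial chaperonin genes whose spans overlap, with log2 fold changes of -0.14 and -0.18. The second is from the plus strand of chr10:82859009-82859205 and lies inside the span of Txnrd1, thioredoxin reductase, before an internal start that RefSeq gives for the gene, which was at -0.24. The third is from the plus strand of chr13:119690101-119690350 before Hmgcs1.
Hspd1: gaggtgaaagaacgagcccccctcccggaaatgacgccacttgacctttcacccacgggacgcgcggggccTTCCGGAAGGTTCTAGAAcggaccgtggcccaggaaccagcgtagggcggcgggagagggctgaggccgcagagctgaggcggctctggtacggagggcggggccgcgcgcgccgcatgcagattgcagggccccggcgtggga
Txnrd1: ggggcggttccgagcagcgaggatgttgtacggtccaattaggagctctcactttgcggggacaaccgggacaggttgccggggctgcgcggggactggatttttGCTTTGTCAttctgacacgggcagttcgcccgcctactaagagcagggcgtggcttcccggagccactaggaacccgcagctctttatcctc
Hmgcs1: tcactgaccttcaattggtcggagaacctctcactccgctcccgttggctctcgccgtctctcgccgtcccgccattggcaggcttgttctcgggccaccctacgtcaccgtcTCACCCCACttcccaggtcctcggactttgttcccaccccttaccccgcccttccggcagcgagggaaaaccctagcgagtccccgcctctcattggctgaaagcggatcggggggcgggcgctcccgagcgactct
The motifs searched on both strands were the heat shock element, which has alternating GAA and TTC units, TGACNNNGC (the core of the antioxidant response element) and TCACCCCAC (a sterol regulatory element). In the Hspd1 stretch 2 overlapping matches form the capitals. The heat shock element was before 2 of 11 tested heat shock genes with a promoter in the table, Hspd1 and Hspe1, which share these same matches, against 0.514% of all 27025 genes. The antioxidant core was in 4 of 17 NRF2 targets, against 11.5% of genes, and the sterol element in 1 of 17 cholesterol genes, against 0.555%. Among those called lower, the motif was in 2 of 9 heat shock genes, 4 of 11 NRF2 targets and 1 of 11 cholesterol genes. A match describes these letters only.

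Of 24 hepatocyte markers, 9 were tested, and 1 was higher, 3 lower and 5 not called (median -0.10). The 3 lower were Alb, Ttr and Hnf4a. Hnf4a, the hepatocyte master regulator that was also delivered by lentivirus, went from 234.2 and 238.3 CPM to 190.3 and 194.9 CPM (-0.30). Viral and endogenous copies cannot be told apart in these counts. Ttr, transthyretin, was at 2.60 and 3.08 CPM and at 1.89 and 1.47 CPM (-0.71), and it was not called without 2D-iH library 2 or without 2D-iHE library 2. Cebpa, a factor of mature hepatocytes, rose from 2.29 and 2.81 to 4.50 and 4.40 CPM (0.81). Apoa1 and Apob, apolipoproteins made by liver and gut, were at -0.02 and -0.09 and did not pass. Afp, the fetal serum protein, fell from 35.8 and 38 CPM to 28.6 and 27.5 CPM (-0.39), 1 of 2 tested fetal hepatic markers. Without the filter on low counts 9 hepatocyte markers were called lower, and 2 when 2D-iH library 1 was left out as well. Of 13 cholangiocyte markers, 1 was higher and 1 lower (median 0.05). Each is 7.69%, close to the 8.0% higher and 7.33% lower among all tested genes. Without library 2 of either group 3 were higher, and without 2D-iH library 1 or 2D-iHE library 2, 2 were lower. Spp1, osteopontin, went from 14.8 and 14.7 to 22.6 and 22.5 CPM (0.61), and Krt19, the biliary keratin, from 976.5 and 1048 to 863.4 and 765.1 CPM (-0.31).

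A further list held genes from the study's own qRT-PCR panels, several of which were run on organoids and assembloids. Of 12 tested, 4 were higher (Fn1, Itga5, Itgav and Cdh2) and 4 lower (Alb, Ttr, Hnf4a and Ocln). With DESeq2, 3 were higher, without Cdh2, and 2 lower, without Ttr and Ocln. Without 2D-iH library 1 the lower genes were 3, with Alb lost, and in the fits of 8 and 14 libraries the higher genes were 2, without Fn1 and Cdh2. Cdh2, N-cadherin, had a log2 fold change of 0.19 and was called without 1 of the 4 libraries only, 2D-iHE library 2, and Ocln, occludin, had -0.31. Cdh1, E-cadherin, was at 219.0 and 221.8 CPM and at 222.6 and 224.4 CPM, and did not pass. Hgf, at 0.21 to 0.37 CPM, did not pass either. Slco1a5, a bile acid carrier, Akr1d1, Acnat2, Habp2 and Serpina1a were at or under 0.17 CPM in all 4 libraries and were not tested. Oct4 (Pou5f1) was at 0.57 to 0.90 CPM, with a log2 fold change of -0.31 and an adjusted p of 0.608 in edgeR's quasi-likelihood test, and Hnf4a was the 1 lower gene of 2 tested lentiviral factors.

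Of 24 listed mouse endothelial markers, 15 were tested, and 7 were lower and 2 higher (median -0.36). Without 2D-iHE library 1 the split was 2 lower and 2 higher, without 2D-iH library 1 or 2D-iHE library 2 it was 5 lower and 1 higher, and in the fit of the 8 culture libraries it was 4 lower and 1 higher. Cdh5, VE-cadherin, was at 496.5 and 496.5 CPM without iECs and at 454.7 and 447.5 CPM with them (-0.14). It was therefore abundant in iHepSCs grown alone. Vwf, von Willebrand factor, went from 30.8 and 29.0 to 17.1 and 17.2 CPM (-0.81), Sox17, an endothelial and endodermal factor, from 131.5 and 138.8 to 102.2 and 94.6 CPM (-0.45). The angiopoietin receptor family genes Tie1 and Tek were at -1.33 and -0.99, and neither was called without 2D-iHE library 1. The 2 higher genes were Lyve1, of lymphatic and sinusoidal endothelium (0.43), and Ptprb (0.31). Etv2 and Cldn5 had 0 counts in all 4 libraries, which allows up to 3 counts per library. That is 0.0854 to 0.144 CPM before TMM scaling. Pecam1 had 5, 5, 3 and 2 counts. The summed level of the list was 897.6 and 892.3 CPM in 2D-iH and 847.4 and 837.4 CPM in 2D-iHE. Of 42 genes whose proteins are nearly identical in mouse and human, 0 were higher and 16 lower (median -0.12). The lower share was 38.1%, against 7.33% of all tested genes. The lower genes included Tmsb4x, which encodes an actin-binding peptide, at -0.27, Actg1, a cytoplasmic actin, at -0.25 and Tuba1a, a tubulin, at -0.30. Of these, Tuba1a and Actg1 have close copies. Without 2D-iH library 1, 7 of the 42 were lower, and without library 2 of either group, 10 were.

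Of 14 tested genes of the Notch pathway 6 were higher, 2 lower and 6 not called (median 0.14). These shares are 42.9% higher and 14.3% lower, against 8.0% and 7.33% of all tested genes. The higher ones included Notch1 to Notch4 at 0.23, 0.30, 0.40 and 0.52. Notch4 went from 18.7 and 18.6 CPM to 27.8 and 25.3 CPM. Nrarp, a Notch-induced feedback gene, was higher (0.59), and the target genes Hes1 and Hey1 were lower, at -0.30 and -1.12, Hey1 at 0.19 to 1.25 CPM. Nrarp lost the call without library 1 of either group, and Hey1 without library 2 of either. Of 23 Wnt pathway genes 2 were higher and 5 lower (median 0.05), or 8.7% and 21.7%. The former is close to the 8.0% of all tested genes. The ligand Wnt7b went from 63.8 and 67.8 to 117.9 and 114.7 CPM (0.82 ± 0.05), and the receptor Fzd2 from 5.71 and 6.45 to 11.2 and 10.9 CPM (0.87). The noncanonical ligands Wnt11 and Wnt5a were at -0.83 and -0.50. Without 2D-iH library 2 or 2D-iHE library 1, Wnt5a was not called and 2 Wnt genes were lower. Of 11 EGF receptors and ligands, 2 were lower and 0 higher (median -0.02). They were the ligands Areg, from 184.8 and 170.5 to 120.5 and 118.9 CPM (-0.57), and Btc, at -0.51. Of 28 MAPK feedback and immediate early genes, 6 were lower and 2 higher (median -0.13). The higher share was 7.14%, close to the 8.0% of all tested genes, and the lower share was 21.4%, against 7.33%. Spry4, an inhibitor of receptor kinase signalling, led the lower ones, from 24.6 and 26.8 to 12.5 and 14.5 CPM (-0.94). Epha2, an ephrin receptor, and Egr1, an immediate early factor, were at -0.32 and -0.31, and Etv4 was higher, at 0.38. In the fits of 8 and 14 libraries no member was called higher, Etv4 included, and the lower ones were 3 in the fit of 14 and 10 with GC and length trends removed.

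Of 20 mitosis genes 0 were higher and 2 lower (median -0.09), and of 24 genes of DNA replication and the G1/S step 0 were higher and 3 lower (median -0.01). These shares are 10% and 12.5% lower, against 7.33% of all tested genes. The number of mitosis genes called lower was 9 with GC and length trends removed, and 0 with DESeq2, in the fits of 8 and 14 libraries and without 2D-iH library 1. Rrm2, which supplies nucleotides, was at -0.32 and stayed called without each library, and Nusap1, Kif20a, Ccne2 and Tyms, between -0.26 and -0.16, each lost the call without library 1 of either group, and Nusap1 and Tyms without library 2 of either as well. The lower genes of DNA replication and the G1/S step were 1 without library 1 of either group. Of 17 p53 targets 5 were lower and 1 higher (median -0.01), with Mdm2, the p53 inhibitor, at -0.17, Btg2 at -0.21 and Sesn2 higher, at 0.18. Mdm2 was not called, and 2 targets were lower, without 2D-iH library 2 or 2D-iHE library 1, and Sesn2 was not called without 2D-iH library 1. Without library 2 of either group 2 targets were higher. Of 25 hypoxia and glycolysis genes 5 were higher and 7 lower (median -0.01). Car9, a carbonic anhydrase, went from 88.3 and 99.5 to 136.3 and 131.9 CPM (0.52), Pfkfb3, a glycolysis activator, was at 0.74, Slc16a3, a lactate exporter, at 0.45, and Adm, adrenomedullin, at -0.95. Slc16a3 was not called without 2D-iH library 1, when 3 genes were higher and 4 lower, and 3 were lower without 2D-iH library 2. Of 23 junction and cadherin genes 3 were higher and 4 lower (median 0.02), with Dsg2, a desmosomal cadherin, at -0.44. The shares were 13% higher and 17.4% lower, against 8.0% and 7.33% of all tested genes. The higher ones were 1 without either 2D-iH library, and 0 in the fits of 8 and 14 libraries and with a replicate block. For the list directions given as 0, edgeR's quasi-likelihood test at an unadjusted p under 0.05 gave 1 member lower among integrins and laminins, 1 lower among oncostatin M genes, 3 higher among EGF genes and 0 in the others, and DESeq2 and limma-voom gave 0 in each. With GC and length trends removed, 2 collagens and 2 integrin or laminin genes were lower. None of the 13 listed mitochondrially encoded genes was found in the table by symbol.

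Fewer members of the following lists were also called in the fits of 8 and 14 libraries. The lower heat shock genes were 5 and 4, the lower genes with proteins nearly identical in mouse and human 7 and 5, and the lower p53 targets 2 and 1. The hypoxia and glycolysis genes were 3 higher in both fits, and 4 and 3 lower. The lower Wnt genes were 2 in both fits, and the lower genes of chemokines and cytokines, of DNA replication, of the interferon list and of the Notch list were 1 in both. In the fit of 14 libraries the higher genes were 4 for chemokines and cytokines and 3 for the oncostatin M list, and the lower genes of the unfolded protein list were 6. With DESeq2, 8 interferon genes were higher. With library totals as the only scaling, 13 integrins and laminins and 3 cholangiocyte markers were higher.

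**Figure D4:**
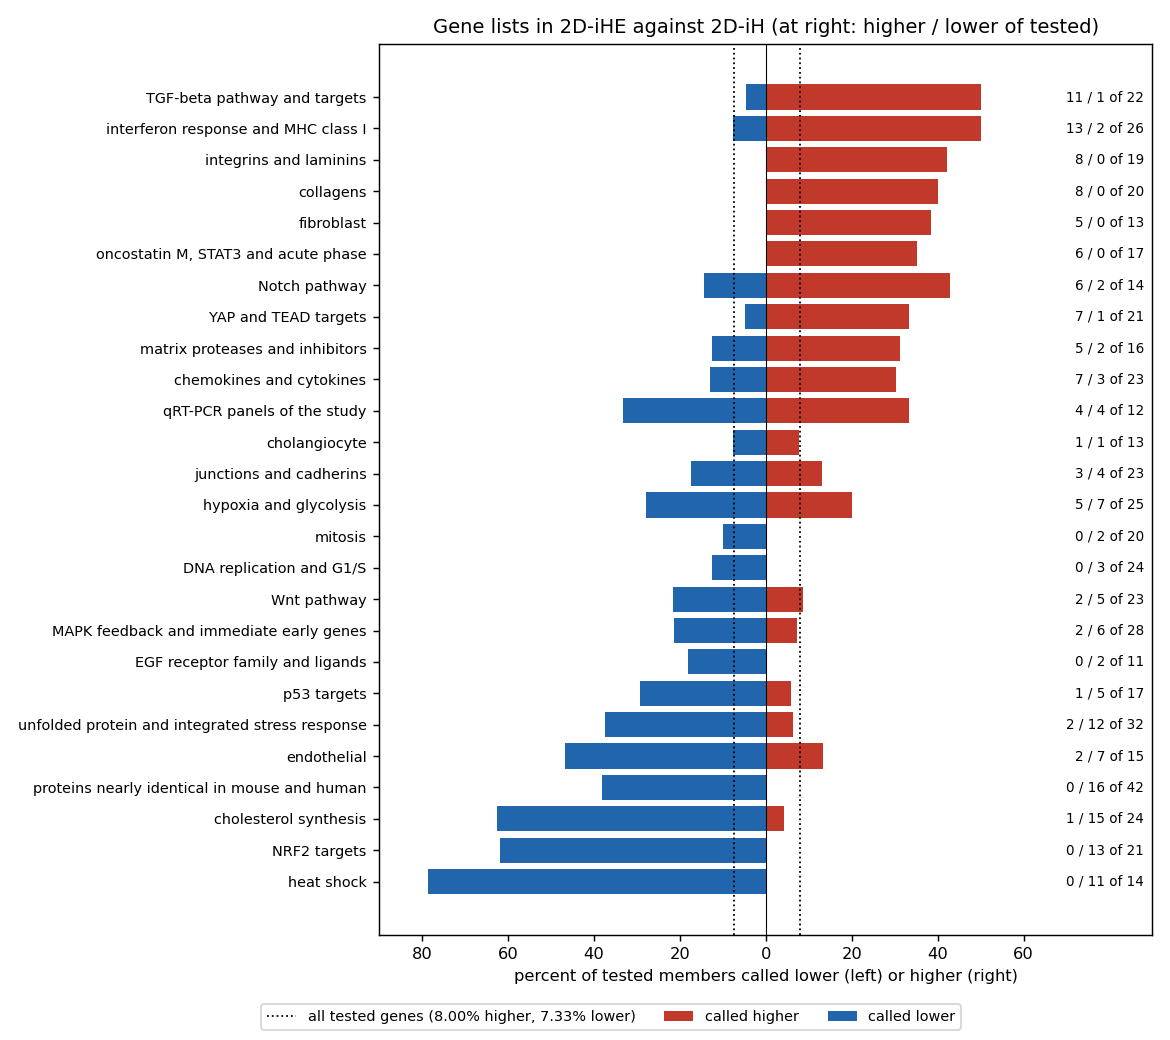
Share of the tested members of each list with at least 10 tested members that was called higher (red, right) or lower (blue, left) in 2D-iHE, with dotted lines at the shares of all tested genes, 8.0% and 7.33%. TGF-β and interferon genes reach 50% higher, and heat shock genes 78.6% lower.

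The same question was asked in 3D, where 3D-iHEA was compared with 3D-iHA over the same genes in a fit of the 8 culture libraries. The 3D contrast uses none of the 2D libraries, but the fit and its dispersion include them. There 157 genes were higher and 146 lower, 1.18% and 1.09% of those tested, or 2.27% together. Of the genes called in 2D, 140 were also called in 3D, which is 6.84% of the 2D calls and 46.2% of the 3D calls. These were 62 higher in both, 42 lower in both and 36 of opposite direction. The 2D calls here come from the fit of 4 libraries. With both contrasts from the fit of 8, which had 1153 calls in 2D, 102 genes were called in both, 8.85% of the 2D calls and 33.7% of the 3D calls. Pmepa1 was at 0.95 in 3D, Nrp2 at 0.66, Lamb3 at 0.69, Wnt7b at 1.22 and Col6a1 at 1.10, all called higher in both. Tie1, Vwf, Wnt11, Ccl20 and Gsta3, at -1.59, -0.70, -0.61, -0.74 and -0.48 in 3D, were called lower in both. Col1a1 had a log2 fold change of -1.47 in 3D, opposite in sign to that in 2D. Cdh17 and Ceacam1 had 0.23 and 0.36 in 3D. The 3D values of these 3 genes are given for sign and size, not as calls.

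The difference between the 3D and 2D effects was tested by the interaction term. It was called for 450 genes, 3.37% of those tested, of which 388 were called in 2D, 203 of them higher and 185 lower there. The interaction uses the same 2D libraries as the 2D calls, and the named genes were chosen largely for their 2D changes. The 388 and the differences of named genes are therefore partly set by that overlap. The gene with the clearest difference among the named ones was Cdh17, whose 3D effect exceeded its 2D effect by 1.65 on the log2 scale (adjusted p = 3.044e-07 by edgeR's quasi-likelihood test). Cpm was at -1.42 in 2D and 0.06 in 3D, and Serpinb11 at -2.47 and -0.02. Leaving out a library changed the number of differences. The number rose when either 3D-iHEA library was left out, and fell when any other culture library was left out. The label of 1 3D-iHEA library is inconsistent, so only its group was relied on. Why the number moved was not tested.

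**Figure D5:**
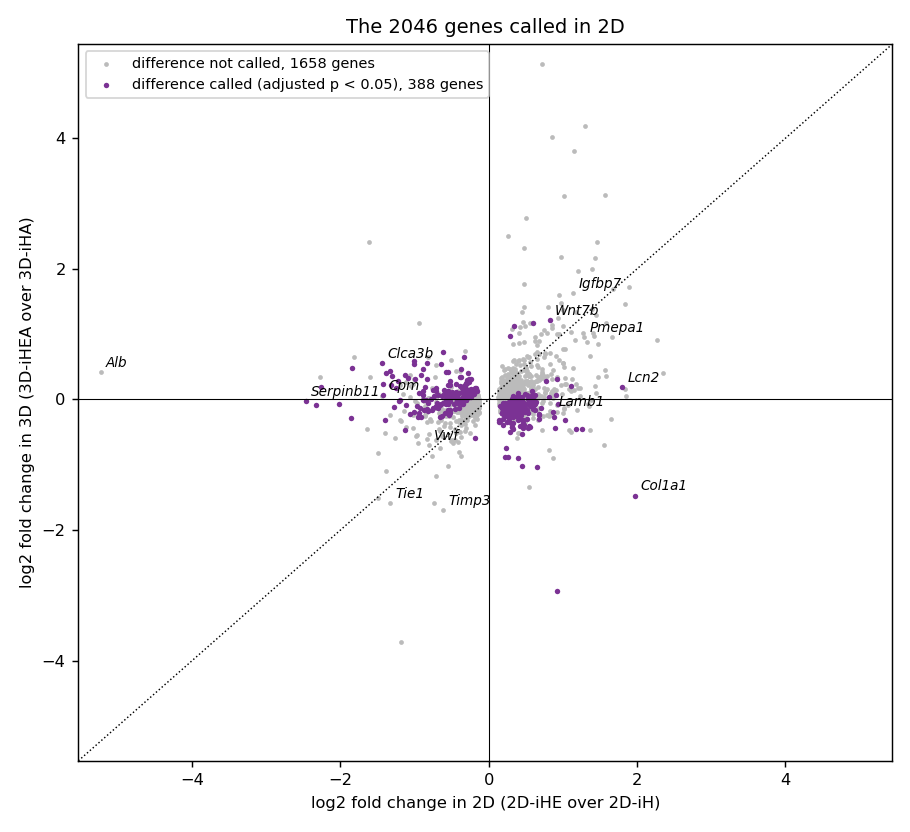
Log2 fold change with iECs in 2D (horizontal) against that in 3D (vertical) for the 2046 genes called in 2D, with the 388 genes whose effects differed by the interaction test in purple and a dotted line of equal effects. Pmepa1, Igfbp7 and Wnt7b lie up and right, Tie1 lies down and left, and Serpinb11, Cpm and Lcn2 lie near 0 on the vertical axis.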

How the data were processed

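RNA was sequenced from 14 libraries in 7 conditions, 2 libraries each. Per the study's methods and the labels, the authors trimmed 150-base paired reads with Trimmomatic (0.36), aligned them to the mouse genome GRCm38 (mm10) with HISAT2, annotated them with Cufflinks and deposited raw counts per gene from HTSeq. Strand and multi-gene handling are not given in the sources used here.

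Libraries were grouped by GEO's labels. Counts were tested with edgeR (4.0.16, R 4.3.3) by the quasi-likelihood test with TMM scaling, over genes whose log2(count + 1) averaged 3 or more in the 4 libraries, and p-values were adjusted by Benjamini-Hochberg over all 13345 tested genes. CPM are counts scaled to 1e6 per library after TMM scaling of the totals, and fold changes use TMM too. For fibroblast and liver levels the TMM step used all 14 libraries. The floor of 3 counts is given in CPM of the totals before TMM scaling. The 3D effect and the difference came from 1 fit of the 8 culture libraries. Named genes were the 12 largest called changes in each direction at 1 CPM or more and the 6 largest at 50 CPM or more, without overlap between groups, up to 4 called members of each list with the largest changes, the qRT-PCR panel genes and the lentiviral factors. Some of these genes are not reported here. Id1, Id3, Serpina3k, Fga, and members given beside these, were chosen after their values were seen. The lists and members were chosen with earlier results of these data known. The lists were fibroblast, collagen, integrin and laminin, matrix protease, TGF-β, YAP, interferon, oncostatin M, chemokine, macrophage and blood, heat shock, NRF2, cholesterol, unfolded protein, hepatocyte, fetal hepatic, cholangiocyte, qRT-PCR, lentiviral, endothelial, near-identical proteins, Notch, Wnt, EGF, MAPK, mitosis, DNA replication, p53, hypoxia, junction and mitochondrial genes.

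On simulated data with 200 changed genes among 13345 in this design, the test recovered 80% of 100 genes changed by 0.5 and 87% of 100 changed by 1 on the log2 scale, and 6.2% of its calls were false. With 2 libraries per group the smallest p of an exact permutation test is above 0.05, so none was used. Libraries of the same number did not deviate together (correlation of within-group differences over genes -0.0809), and the numbers do not pair them. Alternatives were DESeq2 (1.42.0), limma-voom (3.58.1), other filters, scalings and fits, and leaving out each library. Removing GC and length trends (values for 13322 genes, 99.8%), a robust prior, and dropping the filter together with 2D-iH library 1 were added after seeing the data. Coordinates are from GENCODE for GRCm38. Intervals and the floor of 3 counts cover counting error only.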

Additional observations from a re-analysis of the deposited data

Results flagged for a closer look

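The added iECs had a different effect in 3D than in 2D for 41 of the 128 tested named genes, by the interaction term of edgeR's quasi-likelihood test at an adjusted p under 0.05, against 3.37% of all tested genes. The named genes were chosen largely for their changes in 2D, and the interaction uses the same 2D libraries, so the count and the direction of the differences are partly set by that choice. Values are the 3D log2 fold change minus the 2D one. For 13 genes that were higher in 2D-iHE, the effect in 3D was lower. The differences were -3.44 for Col1a1, -1.61 for Lcn2, -1.62 for Smtnl2, -1.06 for Lamb1, -0.81 for Car9, -0.78 for Cebpa, -0.69 for Ifi44, -0.68 for Notch4, -0.64 for Ccn2, -0.63 for Bst2, -0.62 for Lbp, -0.61 for Porcn and -0.39 for Cd14. Wnt7b was higher in both and more so in 3D, with a difference of 0.39. For 27 genes that were lower in 2D-iHE, the 3D effect lay above the 2D effect. The differences were 2.44 for Serpinb11, 2.46 for Ildr1, 1.96 for Tmigd1, 1.58 for Nlrp6, 2.33 for Clca4a, 2.00 for Clca3b, 1.48 for Cpm, 1.65 for Cdh17, 1.66 for Ceacam1, 1.08 for Slc2a3, 1.31 for Krt6a, 0.53 for Krt19, 0.45 for Ocln and 0.67 for Dsg2. They were 0.72 for Id2, 0.31 for Sox17, 0.40 for Hnf4a, 1.00 for Areg, 0.57 for Btc, 0.73 for Spry4, 0.55 for Egr1 and 0.58 for Atf3. For Tedc2, Hsp90aa1, Hsph1, G6pdx and Tmsb4x they were 0.68, 0.30, 0.33, 0.39 and 0.53. Of the 41 genes, 6 were also called in 3D on their own.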

How the results depend on the processing

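No gene called in the main fit changed direction under any of the 17 alternatives. The 1068 genes higher in 2D-iHE became 550 with DESeq2, 609 in the fit of the 8 culture libraries, 529 in the fit of all 14 libraries, 35 in a test against a log2 fold change of 0.5, and 619 to 1094 when a library was left out. The 978 lower genes became 623, 544, 436 and 54 under the same settings, 653 to 921 when a library was left out, and 1489 with GC and length trends removed. The log2 fold change had a Spearman correlation over genes of 0.202 with GC content and 0.073 with length. A replicate block gave 867 higher and 684 lower genes, but the numbers do not pair the libraries, and no block could be fitted for the difference between 3D and 2D because a 3D-iHEA library carries no usable number. The 450 differences between the 3D and 2D effects became 137 to 944 when a library was left out. Library totals as the only scaling gave 65.3% of calls as higher, against 52.2%. Of 2159 alternative values for the 128 tested named genes, 1916 kept direction and call, 241 lost the call and 2 changed sign, none of a called gene: the log2 fold change of Cdh1 was -0.0016 with GC and length trends removed, and that of Hgf ran from -0.46 to 0.35 when a library was left out, above 0 without 2D-iH library 1. The causes were not tested.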
